A study of Mus musculus with 2 samples.

Results

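The genes that mark brown and beige fat were followed through every class of nuclei in mouse mesenteric perivascular adipose tissue, the fat that surrounds the arteries of the gut. The 10 genes Ucp1, Cidea, Dio2, Ppargc1a, Elovl3, Otop1, Acot11, Esrrg, Tbx1 and Letmd1 were taken by symbol from the 32285 genes of the deposited matrices. The study compared 2 single-nucleus RNA-seq libraries of mice aged 11 weeks, 1 per genotype. The library labelled PRDM16cKO came from Prdm16flox, AdopiQCre+ mice, in which the adiponectin gene that names the Cre is active in adipocytes at large. The library labelled wt came from mice whose genotype is given as Prdm16flox, with no Cre named. Both genotypes thus carry the floxed allele, and the control is taken as a flox control. Prdm16 encodes a transcriptional coregulator of brown and beige fat genes, and the comparison asks what its loss from adipocytes does. The labels used here give neither the number of animals pooled nor the floxed exon, and the series title names thoracic and abdominal tissue where the sample labels name mesenteric tissue. The sample labels were followed.

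Brown and beige adipocytes burn fuel to make heat. Uncoupling protein 1, encoded by Ucp1, lets protons leak across the inner mitochondrial membrane, and cold turns the programme on through beta-adrenergic receptors, cyclic AMP and the coactivator PGC-1α, encoded by Ppargc1a. Fat around the thoracic aorta of mice resembles brown fat, whereas mesenteric fat resembles white fat.

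The cKO-labelled library held 8086 barcodes and 70895490 unique molecular identifiers (UMIs, each counting 1 captured RNA molecule), and the control library held 12060 barcodes and 108987031 UMIs. After filtering, 7374 cKO-labelled and 10532 control nuclei remained, with medians of 6497 and 7047.5 UMIs. They formed 28 clusters, which marker genes grouped into 16 named classes and the unnamed cluster 4; the 10 genes were left out of the clustering, so no cluster is defined by them. Adipocyte-like nuclei were 4 clusters in which between 6 and 9 of 10 adipocyte markers met the naming rule given below. They held 2906 cKO-labelled and 4409 control nuclei. Summed adipocyte markers were found in the other named classes at 22.0 to 52.0% of their adipocyte-like level in the cKO-labelled library and at 18.0 to 41.3% in the control library, which serves here as the gauge of free RNA between droplets. Prdm16 itself was not lower in the cKO-labelled adipocyte-like nuclei: 857 UMIs gave a level of 22.4 CPM there (UMIs of the gene scaled to a fixed total of all UMIs in the same nuclei), against 955 UMIs and 16.5 CPM in control nuclei (log2 ratio 0.44, 95% interval 0.31 to 0.58). Counts from the 3′ end need not register the loss of an internal exon. A swap of the 2 labels, which would reverse every direction, cannot be told apart from this, so each direction below is one between a library labelled cKO and a library labelled control. With 1 library per genotype there is no replicate check and no p-value, and every interval covers counting error only. Barcodes present in both libraries numbered 28, and 48 retained nuclei carried such a barcode; leaving these out left the Cidea and Acot11 ratios given below at log2 0.76 and 1.05.

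Ucp1 was not detected in adipocyte-like nuclei beyond a single molecule. The gene (chromosome 8, 83290352 to 83298452, plus strand, mm10 coordinates) had 1 UMI in all cKO-labelled barcodes and 4 in all control barcodes. None of the cKO-labelled UMIs and 1 of the control UMIs lay in adipocyte-like nuclei; macrophage-like nuclei held 1 in each library and pancreatic acinar-like nuclei held 2 in the control library. A count of 0 in cKO-labelled adipocyte-like nuclei allows a level of up to 0.0785 CPM (the limit of 3 counts), and the control level was 0.0173 CPM (0.000437 to 0.0962). When each nucleus was thinned to 1000 UMIs, none of 2883 cKO-labelled and none of 4404 control adipocyte-like nuclei kept a Ucp1 UMI, which allows shares of up to 0.104% and 0.0681% of nuclei with a UMI at that depth and sets no limit on nuclei expressing the gene. Thinned to 3000 UMIs, 0 of 2851 cKO-labelled and 1 of 4365 control nuclei kept one. Its promoter, with the start of transcription 50 bases from the right end, is printed below because Ucp1 is the defining gene of thermogenic fat, and it is set beside that of Dio2, a cold-induced gene of the same programme that was detected. Both come from RefSeq (GRCm38.p6) and run from 250 bases before to 50 bases after the start. The capitals mark a cyclic AMP response element, TGACGTCA, a palindrome and so read alike on both strands, which begins at position 156 of the Dio2 window.
Ucp1, chr8:83290098-83290397, plus strand: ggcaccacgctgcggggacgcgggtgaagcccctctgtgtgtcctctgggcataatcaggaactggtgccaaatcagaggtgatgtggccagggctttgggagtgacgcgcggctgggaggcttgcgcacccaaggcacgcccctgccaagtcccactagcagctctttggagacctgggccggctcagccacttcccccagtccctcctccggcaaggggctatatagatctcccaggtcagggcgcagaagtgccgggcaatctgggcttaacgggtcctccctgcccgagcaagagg
Dio2, chr12:90738989-90739288, minus strand: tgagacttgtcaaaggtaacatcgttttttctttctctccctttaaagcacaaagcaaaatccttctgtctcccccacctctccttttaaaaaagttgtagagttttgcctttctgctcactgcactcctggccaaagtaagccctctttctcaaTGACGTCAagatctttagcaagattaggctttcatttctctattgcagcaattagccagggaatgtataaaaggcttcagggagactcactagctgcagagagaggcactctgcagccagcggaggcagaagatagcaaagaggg
The element TGACGTCA occurs in 1.79% of the 32851 RefSeq promoters of this length, and Dio2 was the only 1 of the 13 promoter entries found for 8 of the 10 genes to hold it. Only this exact sequence was searched, so variants of it and elements outside these windows were not counted. None of the 13 held TNAAGGTCA, searched on both strands and bound by oestrogen-related receptors such as the product of Esrrg; 1.28% of all promoters did. Cidea and Elovl3 had no entry.

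Dio2, which encodes the type 2 deiodinase that makes active thyroid hormone inside the cell, was rare (chromosome 12, 90724552 to 90738438, minus strand). It had 94 UMIs in cKO-labelled adipocyte-like nuclei, 2.46 CPM (1.99 to 3.01), against 106 UMIs and 1.83 CPM (1.498 to 2.21) in control nuclei, a log2 ratio of 0.43 (0.01 to 0.84). A Dio2 UMI was present in 2.44% of cKO-labelled and 1.95% of control adipocyte-like nuclei (median depths 11837 and 12118 UMIs), against 1.66% and 0.660% of B cell-like nuclei (median depths 4268 and 3761 UMIs). The level in adipocyte-like nuclei was 2.26 times that in all other nuclei of the cKO-labelled library and 2.66 times in the control library, and macrophage-like nuclei, with no Dio2 UMI in either library, were the only class whose interval lay below the adipocyte-like one in both.

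Elovl3 and Otop1 were close to the limit of detection. Elovl3, an elongase of very long fatty acids that cold induces in brown fat (chromosome 19, 46131897 to 46135694, plus strand), had 9 UMIs in cKO-labelled adipocyte-like nuclei, 0.236 CPM (0.108 to 0.447), and none in control nuclei. The measured cKO-labelled level was 4.55 times the control limit of 3 counts, 0.0518 CPM. With counting error in both libraries, the exact interval of the log2 ratio began at 1.58. Of the 9 UMIs, 8 lay in cluster 1, which is described below. Within cluster 1 the interval of the log2 ratio began at 0.33. Otop1, a proton channel (chromosome 5, 38275972 to 38304217, plus strand), had 35 UMIs and 0.916 CPM (0.638 to 1.27) in cKO-labelled nuclei, against 44 UMIs and 0.759 CPM (0.552 to 1.02) in control nuclei. These intervals overlapped, and the log2 ratio was 0.27 (-0.41 to 0.94). Otop1 was higher in adipocyte-like nuclei than in the remaining nuclei, 3.13-fold in the cKO-labelled library and 2.04-fold in the control library.

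Cidea was detected in adipocyte-like nuclei at a higher level than in the rest of the tissue. It encodes a protein of the lipid droplet surface that is abundant in brown fat (chromosome 18, 67343604 to 67367785, plus strand). In cKO-labelled adipocyte-like nuclei 633 UMIs gave 16.6 CPM (15.3 to 17.9), against 565 UMIs and 9.75 CPM (8.96 to 10.6) in control nuclei, a log2 ratio of 0.76 (0.60 to 0.93). A UMI was found in 12.6% of cKO-labelled and 8.19% of control adipocyte-like nuclei, and in 4.42% and 1.32% of the shallower B cell-like nuclei, a type not known for Cidea expression. After thinning to 1000 UMIs the shares were 1.77% (1.32 to 2.32) and 0.727% (0.498 to 1.02) in adipocyte-like nuclei and 0.562% (0.0142 to 3.09) and 0.662% (0.0803 to 2.37) in B cell-like nuclei, whose intervals are wide and overlap the adipocyte-like ones. Of all Cidea UMIs in retained nuclei, 76.9% in the cKO-labelled and 85.1% in the control library lay in adipocyte-like nuclei, which held 61.5% and 62.4% of all UMIs. Cidea was below the adipocyte-like level, with intervals apart in both libraries, in 6 of 16 other classes and above it in none. The level in B cell-like nuclei was 38.8% of the adipocyte-like level in the cKO-labelled library and 30.3% in the control library, where the summed adipocyte markers stood at 46.7% and 26.7%. In the cKO-labelled library pancreatic acinar-like nuclei reached 104% of the adipocyte-like level, but from 22 UMIs in 7 nuclei, of which the highest 2 held 9 and 8.

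Letmd1, which encodes an inner mitochondrial membrane protein needed for brown fat thermogenesis in mice (chromosome 15, 100469023 to 100479164, plus strand), was detected in all classes, with none set apart from adipocyte-like nuclei in both libraries. With 734 UMIs it stood at 19.2 CPM (17.8 to 20.7) in cKO-labelled adipocyte-like nuclei, against 1031 UMIs and 17.8 CPM (16.7 to 18.9) in control nuclei, a log2 ratio of 0.11 (-0.03 to 0.25). The level in adipocyte-like nuclei was 1.11 times that of the other nuclei in the cKO-labelled library and 1.21 times in the control library. None of the 16 other classes lay above or below the adipocyte-like interval in both libraries, and their median was 16.5 CPM in the cKO-labelled and 14.4 CPM in the control library.

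Acot11, which encodes an acyl-CoA thioesterase that cold induces in brown fat, was higher in several other classes than in adipocyte-like nuclei (chromosome 4, 106744555 to 106804998, minus strand). In adipocyte-like nuclei 452 UMIs gave 11.8 CPM (10.8 to 12.97) in the cKO-labelled library, against 330 UMIs and 5.70 CPM (5.10 to 6.34) in the control library, a log2 ratio of 1.05 (0.85 to 1.26). Adipocyte-like nuclei held 50.8% of its UMIs in the cKO-labelled and 30.8% in the control library, below their 61.5% and 62.4% of all UMIs. The adipocyte-like level was 0.65 times that of the other nuclei in the cKO-labelled library and 0.27 times in the control library. Intestinal epithelial-like nuclei had 49.9 and 79.0 CPM in the cKO-labelled and control libraries, progenitor or fibroblast-like nuclei 28.4 and 29.97 CPM. The acinar-like class of the pancreas had 35.3 and 27.4 CPM and the dendritic-like class 30.8 and 27.7 CPM. These 4 classes and the natural killer or innate lymphoid-like class exceeded adipocyte-like nuclei with intervals apart in both libraries. Among fibroblast-like nuclei, the largest of the 5 classes, the log2 ratio between the libraries was -0.08 (-0.39 to 0.23). RefSeq gives 2 starts for Acot11, shown because the counts do not say which start was used in which class; the capitals mark an E-box, CACGTG, a palindrome that begins at position 97 of the downstream window and is absent from the upstream one.
Acot11 upstream start, chr4:106804958-106805257, minus strand: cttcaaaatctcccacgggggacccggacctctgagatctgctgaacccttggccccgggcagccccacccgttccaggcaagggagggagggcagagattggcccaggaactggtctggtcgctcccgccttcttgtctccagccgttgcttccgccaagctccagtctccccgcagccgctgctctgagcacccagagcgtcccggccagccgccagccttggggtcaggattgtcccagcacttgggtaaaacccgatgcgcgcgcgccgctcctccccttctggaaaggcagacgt
Acot11 downstream start, chr4:106799782-106800081, minus strand: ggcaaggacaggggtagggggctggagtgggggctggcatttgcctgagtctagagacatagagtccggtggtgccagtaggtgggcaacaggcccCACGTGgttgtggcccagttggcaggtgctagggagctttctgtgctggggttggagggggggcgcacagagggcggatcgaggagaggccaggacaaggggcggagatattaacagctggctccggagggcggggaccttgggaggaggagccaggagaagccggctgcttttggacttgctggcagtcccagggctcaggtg
The letters CACGTG occur in 7.15% of all 32851 promoters, and among the 13 entries of these genes in that of the downstream Acot11 start alone.

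Ppargc1a was the regulator with the highest level per length and was lower in most other classes than in adipocyte-like nuclei. The coactivator it encodes drives mitochondrial genes and Ucp1 in brown fat (chromosome 5, 51454250 to 51567726, minus strand). From 4178 UMIs its level was 109 CPM (106 to 113) in cKO-labelled adipocyte-like nuclei, against 5474 UMIs and 94.5 CPM (92.0 to 97.0) in control nuclei, a log2 ratio of 0.21 (0.15 to 0.27). A UMI was present in 55.4% of cKO-labelled and 50.4% of control adipocyte-like nuclei, against 18.8% and 14.9% of B cell-like nuclei. Thinned to 1000 UMIs, the shares were 10.6% (9.55 to 11.8) and 8.79% (7.97 to 9.66) in adipocyte-like nuclei, against 6.74% (3.53 to 11.5) and 4.64% (2.56 to 7.66) in B cell-like nuclei, with intervals apart in the control library only. Of 16 other classes, 14 lay below the adipocyte-like interval in both libraries. Intestinal epithelial-like nuclei lay above it, at 253 CPM in the cKO-labelled and 162 CPM in the control library, with 26 and 23 UMIs in the highest nucleus. The Schwann-like class, at 201 and 118 CPM from 25 and 28 nuclei, overlapped the adipocyte-like interval in at least 1 library.

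Esrrg, which encodes the oestrogen-related receptor γ, a nuclear receptor that activates mitochondrial genes, was detected in adipocyte-like nuclei at a level near that of most other classes (chromosome 1, 187608791 to 188214885, plus strand). Adipocyte-like nuclei of the cKO-labelled library had 469 UMIs of it, or 12.3 CPM (11.2 to 13.4), against 559 UMIs and 9.65 CPM (8.86 to 10.5) in the control library, a log2 ratio of 0.35 (0.17 to 0.53). The median over the other classes was 10.3 CPM in the cKO-labelled and 11.0 CPM in the control library, and 13 of the 16 lay neither above nor below the adipocyte-like interval in both libraries. The highest class was intestinal epithelial-like, with 125 CPM (86.9 to 174) from 35 UMIs in 24 cKO-labelled nuclei and 328 CPM (297 to 362) from 403 UMIs in 144 control nuclei; a single nucleus gave 17 of the cKO-labelled and 57 of the control UMIs. Vascular endothelial-like nuclei also lay above the adipocyte-like interval in both libraries, and within them the vessel cluster 20 reached 89.8 and 65.6 CPM, while cluster 21 had no Esrrg UMI in either library. In adipocyte-like nuclei summed intestinal markers stood at 1.07% of their own level in the cKO-labelled library and 2.03% in the control library, whereas Esrrg stood at 9.84% and 2.94% of its intestinal level. Subtracting the intestinal share left 10.9 CPM of Esrrg in cKO-labelled and 2.998 CPM in control adipocyte-like nuclei, and for Acot11 11.3 and 4.10 CPM; single intestinal markers spread over 0.191 to 13.8% and 0.449 to 14.5%, and the part of free intestinal RNA in these levels was not tested.

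Tbx1 was highest in 2 clusters of endothelial-like nuclei that carried lymphatic genes. It encodes a T-box transcription factor that is used as a beige fat marker and is also needed for lymphatic vessel growth (chromosome 16, 18580979 to 18590671, minus strand). Lymphatic endothelial-like nuclei, cluster 14, had 47 UMIs, or 73.9 CPM (54.3 to 98.3), in the cKO-labelled library and 78 UMIs and 65.7 CPM (51.9 to 82.0) in the control library, with a UMI in 33.0% and 28.8% of nuclei. Adipocyte-like nuclei had 22 UMIs and 0.576 CPM in the cKO-labelled library and 34 UMIs and 0.587 CPM in the control library, which is 0.779% and 0.893% of the lymphatic level; summed lymphatic markers stood there at 0.303% and 0.339% of theirs. Cluster 19 was named vascular endothelial-like by its marker count but also carried the lymphatic genes Prox1, Mmrn1 and Reln, with summed lymphatic markers at 1334 CPM in the cKO-labelled and 1624 CPM in the control library. It held 42 of the 43 cKO-labelled and 105 of the 107 control Tbx1 UMIs of the vascular class. Tbx1 reached 58.5 CPM (42.2 to 79.1) and 88.3 CPM (72.2 to 107) in it, whereas clusters 13, 20 and 21, with summed lymphatic markers of 53.7 to 80.04 CPM and 131 to 189.8 CPM, had 0 to 2.19 CPM and 0 to 1.29 CPM. Apart from cluster 4, the unnamed cluster described below, lymphatic and vascular endothelial-like nuclei were the only classes above the adipocyte-like Tbx1 interval in both libraries.

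**Figure D1:**
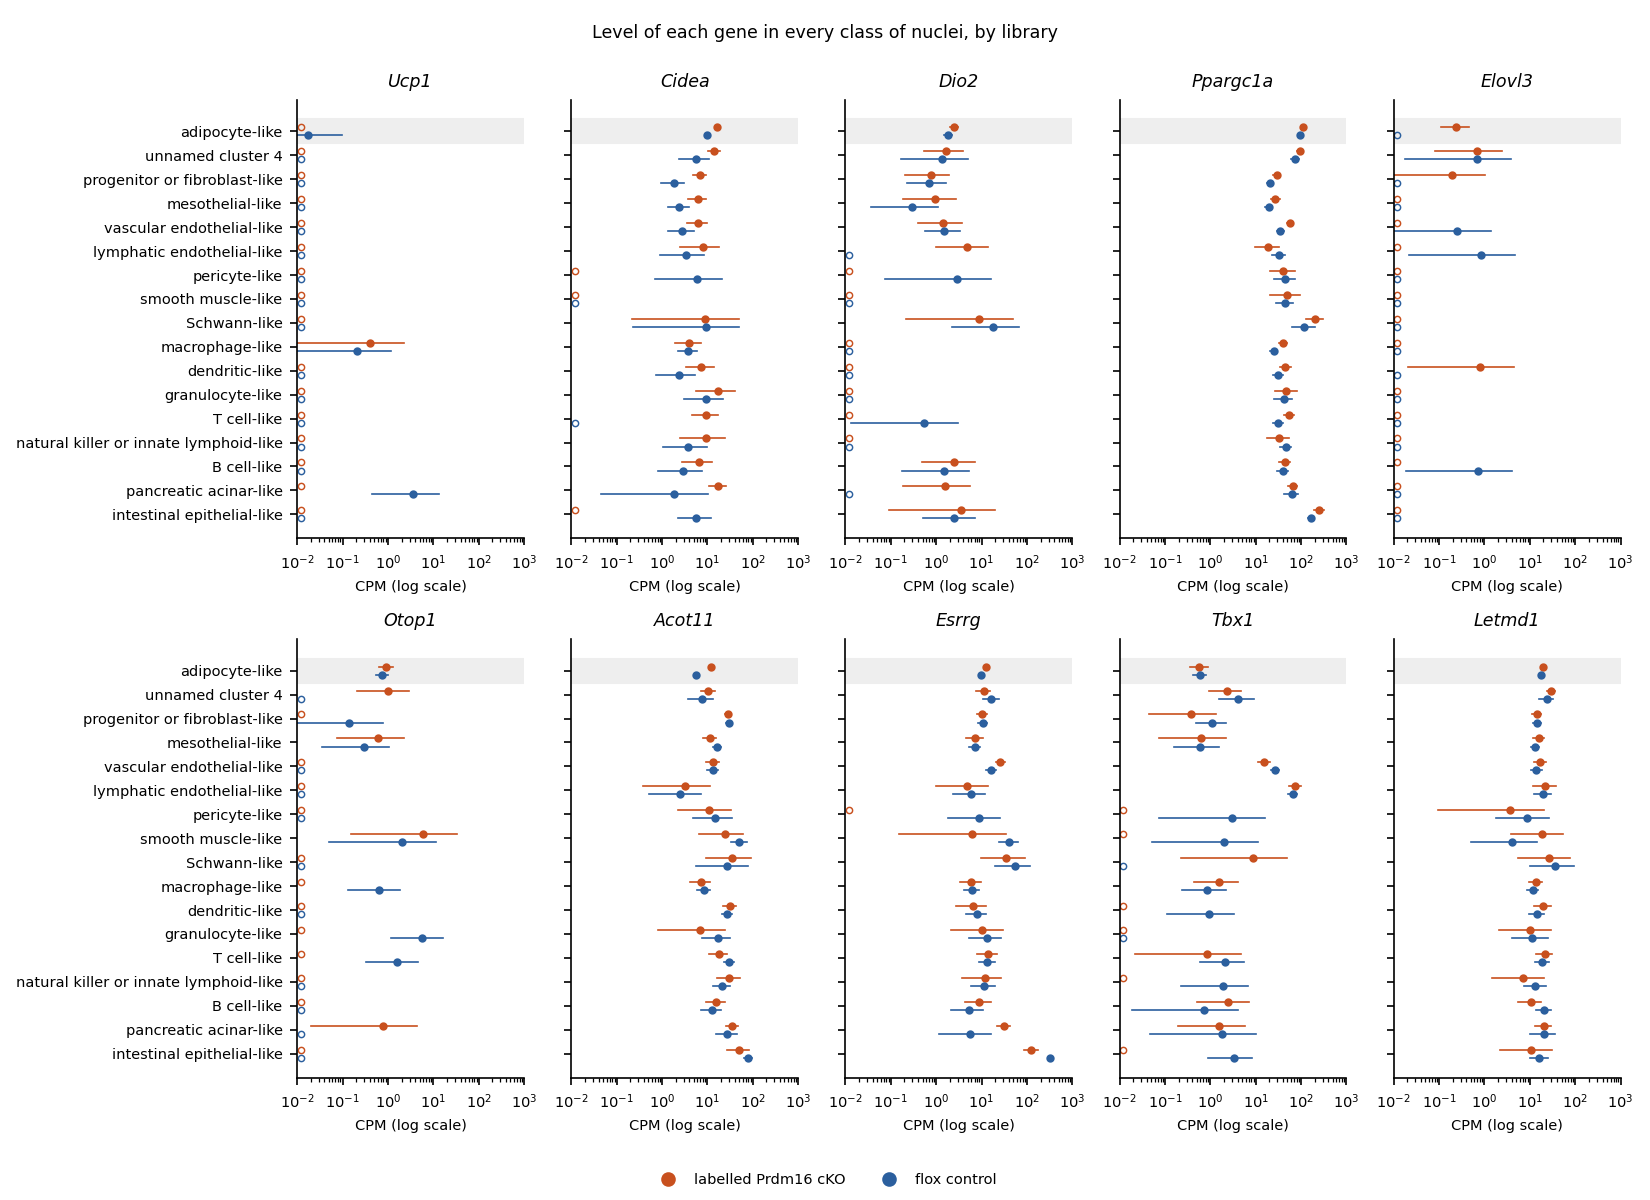
Level of each of the 10 genes in CPM (log axis) in every class of nuclei, with the cKO-labelled library in orange above the control library in blue. Points are sums over nuclei, bars are exact 95% Poisson intervals, and an open circle at the left edge stands for 0 UMIs; Tbx1 peaks in lymphatic endothelial-like nuclei at 73.9 and 65.7 CPM and Esrrg in intestinal epithelial-like nuclei at 125 and 328 CPM.

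Set against all other nuclei of the same library, cluster 4 included, the genes were of 3 sorts. Dio2, Cidea, Ppargc1a and Otop1 were higher in adipocyte-like nuclei by 2.09 to 3.13 times in the cKO-labelled library and by 2.04 to 3.44 times in the control library, beside 2.74 and 3.89 times for the summed adipocyte markers. Letmd1 was near evenly spread. Acot11 and Tbx1 were lower in adipocyte-like nuclei in both libraries, and Esrrg was lower in the control library, 0.45 times, while its cKO-labelled ratio of 0.91 had an interval across 1. Ucp1 and Elovl3 had too few UMIs to be placed.

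**Figure D2:**
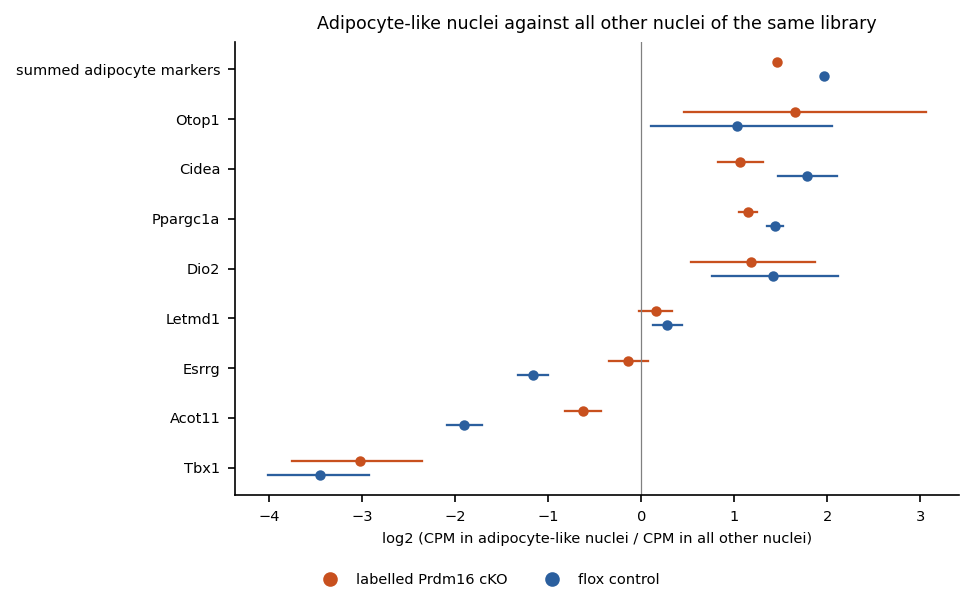
Log2 of the CPM in adipocyte-like nuclei over the CPM in all other nuclei of the same library, for the 8 genes with enough UMIs and for the summed adipocyte markers. Points are the cKO-labelled library (orange) and the control library (blue) with exact 95% intervals; Cidea, Dio2, Ppargc1a and Otop1 lie right of 0 in both, and Acot11 and Tbx1 left of it.

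Levels of different genes were compared per kilobase of gene span, since nuclear RNA holds introns. In adipocyte-like nuclei Letmd1 had the highest level per kilobase, 1.89 CPM in the cKO-labelled and 1.75 CPM in the control library. Ppargc1a followed with 0.964 and 0.833 CPM and Cidea with 0.685 and 0.403 CPM per kilobase. Acot11 had 0.196 and 0.0942, Dio2 0.177 and 0.132 and Tbx1 0.0594 and 0.0605 CPM per kilobase. Esrrg, whose gene spans 606 kilobases, was low on this scale at 0.0203 and 0.0159 CPM per kilobase. Per kilobase of exon, Ppargc1a came first with 16.6 CPM in the cKO-labelled and 14.3 CPM in the control library, ahead of Cidea with 14.9 and 8.75 CPM. Letmd1 fell to 3.96 and 3.67 CPM per kilobase of exon. Esrrg had 1.98 and 1.55 on that scale, beside 1.95 and 0.940 for Acot11 and 0.423 and 0.315 for Dio2. Whether introns were counted is not given in the sources used here. The places of Letmd1, Ppargc1a, Cidea and Esrrg in the order therefore depend on which length applies. How far counts from the 3′ end scale with either length was not tested. Other genes in the matrices overlap Cidea, Dio2, Elovl3, Acot11 and Esrrg on the opposite strand, and the use of strand in counting is likewise not given, so counts of these 5 genes are uncertain to that extent.

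Within the adipocyte-like nuclei, Cidea and Acot11 were highest in the lipogenic cluster. Cluster 1 led with genes of fatty acid and acetyl-CoA synthesis (Elovl6, Acly, Acss2, Me1), and its summed lipogenic markers were 31502 CPM in the cKO-labelled and 27896 CPM in the control library, against 6757 and 5351 CPM in cluster 0, which led with Nnat, Folh1, Tshr and Npr3. Cluster 2 (Slc1a3, Aacs) and cluster 7 (Nnat, Adrb3) lay between them. Cidea reached 25.5 CPM in the cKO-labelled and 23.2 CPM in the control nuclei of cluster 1, against 5.06 and 4.32 CPM in cluster 0. That is 5.04-fold in the cKO-labelled library (log2 2.33, 1.84 to 2.87) and 5.36-fold in the control library (log2 2.42, 2.11 to 2.75), with overlapping intervals. Acot11 had 19.1 and 11.6 CPM in cluster 1, against 3.66 and 3.84 CPM in cluster 0, which is 5.22-fold in the cKO-labelled and 3.02-fold in the control library. Ppargc1a showed a smaller step, 139 and 112 CPM in cluster 1 against 65.8 and 84.9 CPM in cluster 0, or 2.11-fold and 1.32-fold.

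The remaining genes did not share this gradient in both libraries. Esrrg lay between 10.7 and 14.7 CPM over the 4 clusters of the cKO-labelled library and between 8.56 and 12.1 CPM over those of the control library, with cluster 2 highest in the cKO-labelled and cluster 1 highest in the control library. Letmd1 lay between 18.1 and 21.8 CPM and between 16.1 and 20.8 CPM. Dio2 was 2.98 and 2.67 CPM in cluster 1, against 1.97 and 1.38 CPM in cluster 0, and the log2 interval of this step cleared 0 in the control library (0.23 to 1.67) but not in the cKO-labelled library (-0.28 to 1.57). Otop1 was highest in cluster 0 of the cKO-labelled library, 1.13 CPM, and lowest in cluster 0 of the control library, 0.372 CPM. No cluster led with brown adipocyte genes: the summed brown adipocyte markers were 152 to 201 CPM over the 4 clusters of the cKO-labelled library and 157 to 184 CPM over those of the control library, mostly from Ppara and Kcnk3. Cluster 4 is a shallow cluster with a median of 2207.5 UMIs, led by Lrp1b and Grik1. It stayed unnamed because only 2 of 10 adipocyte markers met the naming rule, which asks for 2 times the mean of other clusters. All 10 were found in it. Single markers stood at 63.9 to 118% of the adipocyte-like level in the cKO-labelled and 64.2 to 120% in the control library. At resolution 0.5 no cluster stayed unnamed, and the adipocyte-like class held 3869 cKO-labelled and 4854 control nuclei. Cluster 4 carried summed adipocyte markers at 69.0% of the adipocyte-like level in the cKO-labelled and 67.9% in the control library. Cidea stood there at 14.2 and 5.51 CPM, Letmd1 at 29.3 and 23.4 CPM and Tbx1 at 2.36 and 4.13 CPM.

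**Figure D3:**
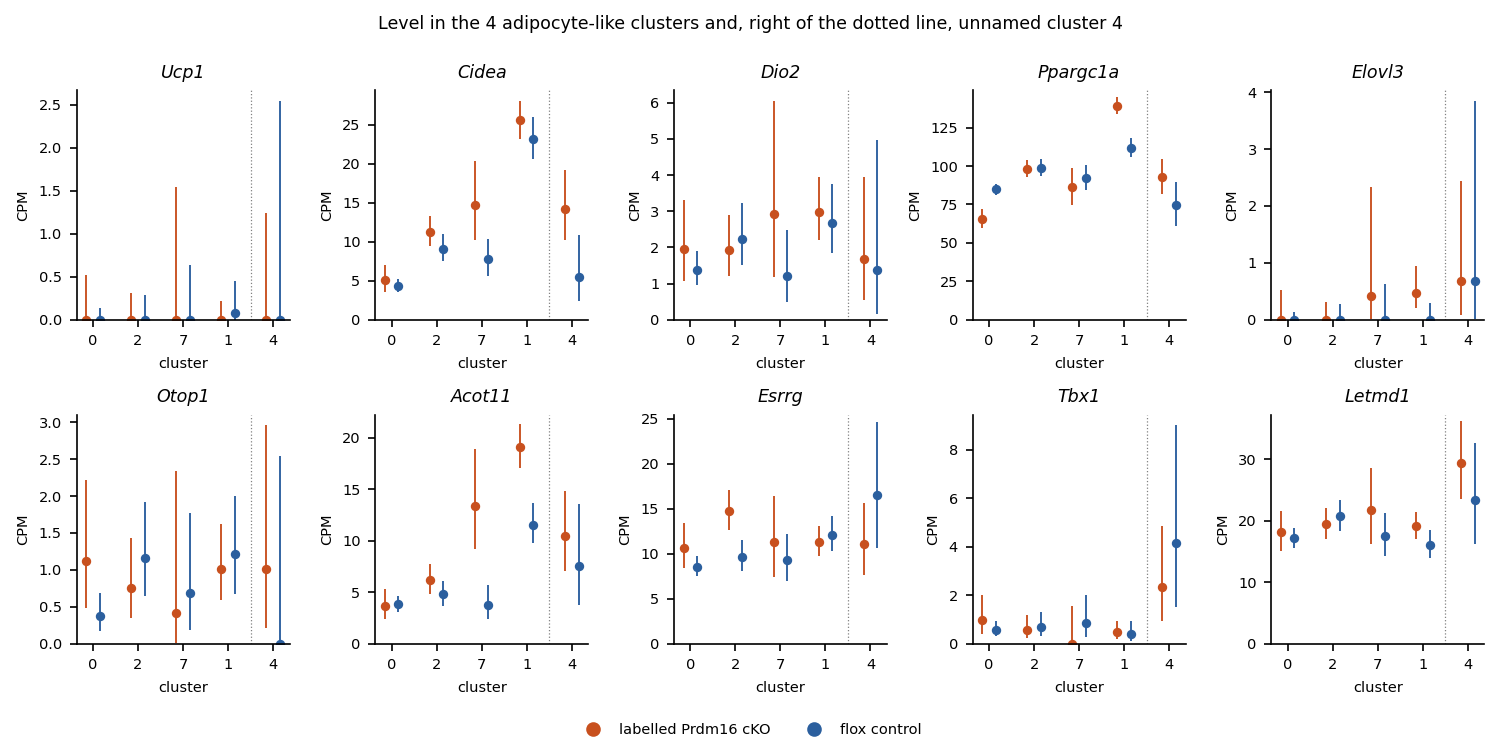
Level in CPM (linear axes from 0) of each gene in adipocyte-like clusters 0, 2, 7 and 1, ordered with the most lipogenic cluster last, and in unnamed cluster 4 right of the dotted line. Orange points are cKO-labelled nuclei and blue points control nuclei with exact 95% Poisson intervals; Cidea stands at 25.5 and 23.2 CPM in cluster 1 and at 5.06 and 4.32 CPM in cluster 0.

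Between the libraries, Cidea and Acot11 were the genes past 1.5 times on the levels as counted. With at least 50 UMIs in adipocyte-like nuclei, 8 of the 10 genes could be compared: 7 had a higher level in cKO-labelled nuclei, 2 were past 1.5 times higher and 0 were past 1.5 times lower. Of the 15360 genes that met the same minimum, 8549 had a higher level in cKO-labelled nuclei, 5.5% were past 1.5 times higher, 3.32% past 1.5 times lower and 8.82% past it in either direction. The median log2 ratio of the 8 genes was 0.31, beside 0.03 over all genes tested. With Elovl3, which was below the minimum, added at its level over the control limit, the median was 0.35. Ucp1 and other genes below the minimum were not added, so this value is not set beside the 0.03. Ucp1 and Elovl3 did not reach the minimum. The Esrrg ratio depended on the allowance for intestinal RNA. As counted, Esrrg was 12.3 CPM in cKO-labelled and 9.65 CPM in control nuclei, and after the subtraction given above 10.9 and 2.998 CPM. The subtraction rests on 24 cKO-labelled intestinal epithelial-like nuclei, where 1 nucleus gave 17 of 35 UMIs, and on 144 control nuclei. The spread of single intestinal markers given above includes shares at which no control Esrrg would remain. The subtracted ratio is therefore not counted as past 1.5 times. None of the 8 genes was lower in cKO-labelled adipocyte-like nuclei with an interval clear of 0; Tbx1, the only 1 below 0, had a log2 ratio of -0.03 (-0.87 to 0.79).

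The 2 libraries differed in which clusters held their adipocyte-like nuclei, and this moved with the Cidea ratio. Most cKO-labelled nuclei lay in clusters 1 and 2 (1210 and 945 of 2906) and most control nuclei in clusters 0 and 2 (1945 and 1101 of 4409). Within clusters the Cidea log2 ratio was 0.23 in cluster 0, 0.14 in cluster 1 and 0.30 in cluster 2, each with an interval across 0, and 0.92 (0.24 to 1.59) in cluster 7. Control levels weighted by the cluster mix of the cKO-labelled library came to 14.3 CPM of Cidea, against the 16.6 CPM measured in cKO-labelled nuclei, which leaves a log2 ratio of 0.21. The genes that define cluster 1 themselves differ between the libraries, so a shift of nuclei between clusters and a change of expression within them cannot be told apart.

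Acot11 kept more of its difference within clusters. Its log2 ratio was -0.069 (-0.75 to 0.56) in cluster 0, 0.72 (0.43 to 1.02) in cluster 1, 0.37 in cluster 2 and 1.82 (0.99 to 2.67) in cluster 7, where 13.4 CPM in cKO-labelled nuclei stood against 3.79 CPM in control nuclei. At the cKO-labelled cluster mix the control level was 7.53 CPM and the remaining log2 ratio 0.65, still past 1.5 times. Ppargc1a went in opposite directions in the 2 main states. In cluster 1 it was higher in cKO-labelled nuclei (0.31, 0.22 to 0.41), and in cluster 0 it was lower (-0.37, -0.51 to -0.22). Esrrg was higher in cKO-labelled nuclei of cluster 2 (0.61, 0.27 to 0.95), with intervals across 0 in the other 3 clusters. Otop1 was higher in cKO-labelled nuclei of cluster 0 (1.60, 0.05 to 3.09), from 8 cKO-labelled and 10 control UMIs, and every Letmd1 and Dio2 interval within clusters crossed 0.

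**Figure D4:**
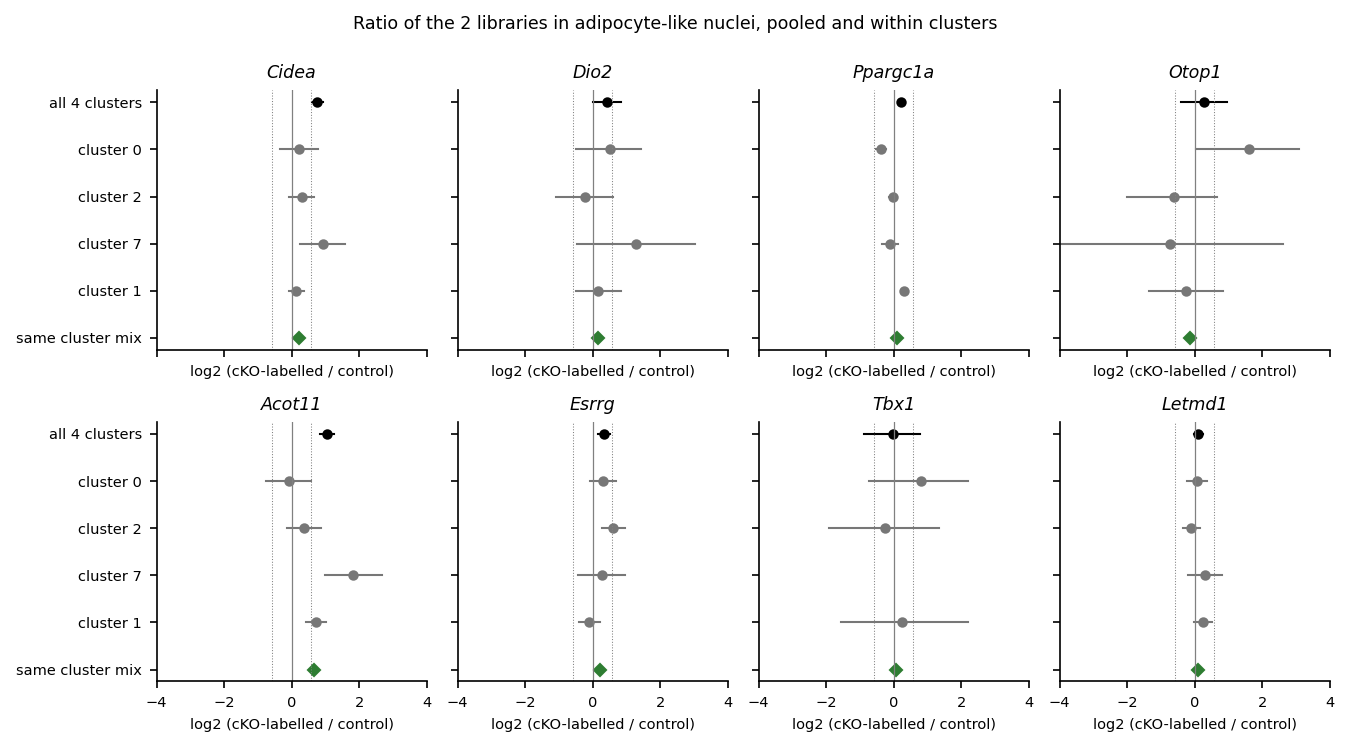
Log2 of the cKO-labelled over the control level for the 8 genes with enough UMIs: over all adipocyte-like nuclei (black), within each cluster (grey) and with control levels weighted by the cKO-labelled cluster mix (green diamonds, no interval). Bars are exact 95% intervals and dotted lines mark 1.5 times in either direction; Cidea stands at 0.76 over all nuclei and 0.21 at the same mix, and Acot11 at 1.05 and 0.65.

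The rest of the thermogenic programme showed no common direction. Beside the 8549 of 15360 genes that were higher in cKO-labelled nuclei over the whole table, the lists ran as follows. Of 22 further effectors, 15 had enough UMIs: 10 were higher in cKO-labelled adipocyte-like nuclei, 2 of them past 1.5 times, and 1 was past 1.5 times lower, with a median log2 ratio of 0.07. Cox8b, a cytochrome oxidase subunit of brown fat and muscle, had 2.12 CPM in cKO-labelled and 1.09 CPM in control nuclei (0.96). Gpd2, the mitochondrial glycerol phosphate dehydrogenase, had 371 and 233 CPM (0.67), and Pdk4, a kinase that shuts off pyruvate oxidation, had 19.3 and 31.4 CPM (-0.70). The brown fat genes Cox7a1, Fabp3 and Slc27a2 stayed below the minimum with 7, 17 and 1 UMIs in cKO-labelled and 13, 15 and 5 UMIs in control nuclei. All 20 listed transcriptional regulators were measurable; 11 were higher and 9 lower in cKO-labelled nuclei, 1 of them past 1.5 times, the corepressor Tle3 with 44.4 CPM in cKO-labelled and 69.9 CPM in control nuclei (-0.66).

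Lineage markers gave the same mixed picture. Of 8 brown lineage markers 5 were measurable, with Mpzl2 past 1.5 times higher (12.5 CPM in cKO-labelled and 8.08 CPM in control nuclei, log2 0.63) and Pdk4 past it lower, while Zic1 and Myf5 had no UMI in adipocyte-like nuclei of either library. Of 9 beige markers found in the matrices 6 were measurable, with Aqp7, a glycerol channel of the adipocyte membrane, past 1.5 times lower (26.5 and 41.9 CPM, -0.66) and Cited1 at 0 UMIs in both libraries. Over the 45 measurable genes of these 4 lists the median log2 ratio was 0.02, with 3 past 1.5 times higher and 3 past it lower.

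Outside adipocyte-like nuclei Cidea and Ppargc1a differed between the libraries in the same direction. Cidea was 7.94 CPM in the other cKO-labelled nuclei, against 2.84 CPM in the other control nuclei (log2 1.48, 1.13 to 1.85), and Ppargc1a was 49.5 CPM, against 34.9 CPM (0.50, 0.39 to 0.62). Letmd1 (17.3 and 14.7 CPM) and Dio2 (1.09 and 0.688 CPM) were also higher in the other cKO-labelled nuclei. Acot11 (18.3 and 21.2 CPM), Esrrg (13.5 and 21.6 CPM), Tbx1 (4.68 and 6.39 CPM) and Otop1 (0.292 and 0.373 CPM) were lower there. The Dio2 and Otop1 ratios had intervals across 0. These other nuclei include cluster 4, which gave 962 of 4468 cKO-labelled and 440 of 6123 control nuclei. Cluster 4 carried summed adipocyte markers at 69.0% and 67.9% of the adipocyte-like level. The gap in summed adipocyte markers varied by class. In percent of the adipocyte-like level, B cell-like nuclei had 46.7% in the cKO-labelled and 26.7% in the control library and vascular endothelial-like nuclei 45.3% and 26.6%. The gap was smaller in macrophage-like nuclei (24.5% and 21.6%), in fibroblast-like nuclei (22.4% and 19.7%) and in lymphatic endothelial-like nuclei (22.0% and 20.6%), and pancreatic acinar-like nuclei had 39.3% and 41.3%. The part of free adipocyte RNA in the ratios outside adipocytes was not tested.

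Across the 28 clusters, the genes whose levels followed each of these genes most closely differed from gene to gene. Pearson correlations of log2(CPM + 1) over the 28 clusters, which share libraries and depth, are given as a description. Tbx1 was most like the lymphatic genes Prox1 (r = 0.916), Mmrn1 (0.854) and Flt4 (0.809). Ppargc1a was most like Dpyd (0.870), Lgr4 (0.868) and Mme (0.843), all highest in the intestinal epithelial-like cluster 22. Cidea was most like Fbxo9 (0.854), Coq10a (0.836) and Kmt5a (0.812), of which Coq10a and Kmt5a were highest in cluster 1, as Cidea was. Esrrg was most like Slc9a2 (0.794), Acot11 most like Plekha6 (0.720), Dio2 most like Cyp2j6 (0.756) and Letmd1 most like Tmem267 (0.845). Dio2 and Letmd1 were highest in the Schwann-like cluster 26, which held 25 cKO-labelled and 28 control nuclei. There Dio2 had 1 and 2 UMIs and Letmd1 3 and 4, so these peaks rest on few molecules.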

How the data were processed

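Nuclei were isolated from snap-frozen mesenteric perivascular fat and sequenced with a 10x Chromium 3′ kit v3.1, per the labels' protocols. The deposited matrices hold raw UMI counts per gene and barcode, which per the submitters' processing notes were made with Cell Ranger 6.1.2 against mm10. Annotation release, intron setting and barcode filter were not stated in any source consulted. Barcodes with at least 500 UMIs, 300 genes and under 5% mitochondrial UMIs were kept, which removed 217 cKO-labelled and 449 control barcodes. Scrublet's automatic threshold marked 0% and 0.00861% and was judged not to have worked, so the nuclei with the highest doublet scores were removed at 0.8% per 1000 nuclei (495 and 1079). Both libraries were clustered together (Scanpy 1.11.5, leidenalg 0.10.2; 2000 variable genes without the 10 genes reported, 30 components, 20 neighbours, resolution 1). A marker counted if found in at least 5% of a cluster's nuclei and at least 2 times the mean of other clusters. A cluster took a class name from at least 3 such markers. It stayed unnamed where another set had more genes among its 10 leading genes, or where it was shallow and none of its markers led.

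Counts were summed per class, cluster and library and divided by the summed UMIs (CPM), with exact Poisson intervals for levels, exact conditional binomial intervals for ratios and Clopper-Pearson intervals for shares, all at 95%. Single libraries allow no test. Genes with at least 50 UMIs in adipocyte-like nuclei were compared, and a ratio past 1.5 times was counted. From the other lists, the genes named are among the 4 highest and 4 lowest ratios of each, except Cox7a1, Fabp3, Slc27a2, Zic1, Myf5 and Cited1, chosen for their low counts after these were seen. For likeness, the 3 genes with the highest correlation were taken among those with at least 200 UMIs. Genes, lists, markers and naming rules were chosen with earlier results of these data known. Gene positions are from GENCODE M21 on GRCm38 (32235 of 32285 identifiers matched) and promoters from RefSeq GRCm38.p6. TMM factors came from edgeR 4.0.16 in R 4.3.3, used for scaling only. The calculations were tested on simulated data. Alternatives tried were other scalings, thinning, doublets kept, other clusterings, subtraction of free RNA, single clusters and no count minimum. Counting cluster 4 as adipocyte-like, leaving out shared barcodes and weighting control levels by the cKO-labelled cluster mix were added after the data were seen.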

Additional observations from a re-analysis of the deposited data

Results flagged for a closer look

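Ppargc1a was picked out because its ratio between the libraries took opposite directions in different nuclei. The log2 ratio of the cKO-labelled over the control level was -0.37 in adipocyte-like cluster 0, against 0.31 in the lipogenic cluster 1. It was also above 0, with an interval clear of 0, in 6 classes outside the adipocyte-like clusters: 0.77 in T cell-like, 0.55 in dendritic-like, 0.67 in macrophage-like, 0.50 in mesothelial-like, 0.45 in progenitor or fibroblast-like and 0.70 in vascular endothelial-like nuclei. The differences between these ratios were not tested, since each group of nuclei comes from 1 library per genotype.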

How the results depend on the processing

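No paired analysis was possible because each genotype has 1 library. Over the alternatives tried, the log2 Cidea ratio (0.76) was above 0 in 18 of 18 and past 1.5 times in 13, and the Acot11 ratio (1.05) above 0 in 17 of 18 and past 1.5 times in 16. Cidea was 0.95 after thinning to 1000 UMIs, 0.23, 0.14 and 0.30 within clusters 0, 1 and 2, 0.35 with equal cluster weights and 0.21 at the cKO-labelled cluster mix. Acot11 was -0.069, 0.72, 0.37 and 1.82 within clusters 0, 1, 2 and 7, 0.82 with equal weights and 0.65 at that mix. The count of the 10 genes past 1.5 times (2) was 5 after thinning and 4 in cluster 7, where 24.5% and 25.1% of all genes tested were past it, and 1 in cluster 1, with equal weights and at the mix. The count of other thermogenic genes past it (6) was 11 after thinning, 11 with no count minimum, 2 in cluster 1, 3 with equal weights and 3 at the mix. With no count minimum a different set of genes is compared, those with at least 1 UMI in each library. The share over all genes is given here for thinning and cluster 7 only. The counts at the other settings are therefore not read as a result about the listed genes. With cluster 4 added, Cidea was 0.76 and Acot11 1.03. No scaling moved the median of all genes by over 0.1: it was -0.00 with TMM factors, 0.04 after subtracting 10% free RNA and 0.03 with the mean of per-nucleus CPM. Ppargc1a was above 0 in 15 of 18 alternatives and below it in 3. Depth limits Ucp1, Elovl3, Otop1, Dio2 and Tbx1 most, since each had at most 106 UMIs in the adipocyte-like nuclei of either library.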

Other observations

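Close relatives of the marker genes were measured in the same adipocyte-like nuclei. Ucp3, an uncoupling protein best known from muscle, had 3145 UMIs and 82.3 CPM in cKO-labelled nuclei and 3787 UMIs and 65.4 CPM in control nuclei (log2 0.33). Ucp2 had 4.95 and 5.54 CPM. Elovl6, an elongase of fatty acid synthesis and a leading gene of cluster 1, had 1330 CPM in cKO-labelled and 659 CPM in control nuclei (log2 1.01), and Elovl5 had 125 and 89.7 CPM (0.48). Cidec, the lipid droplet protein of white fat and one of the adipocyte markers used, had 966 and 1260 CPM (-0.38), opposite in direction to Cidea. Esrra, the oestrogen-related receptor α, had 86.7 and 67.3 CPM (0.37), whereas Esrrb had 44 and 82 UMIs. Of 25 relatives 15 had at least 50 UMIs; 8 were higher in cKO-labelled nuclei, beside 8549 of all 15360 genes, 1 past 1.5 times (Elovl6), and the median log2 ratio was 0.03.

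The number of the 10 marker genes found in 1 nucleus was small. The median adipocyte-like nucleus held a UMI of 1 of them in either library and no nucleus held more than 5. None was found in 26.9% of cKO-labelled and 33.6% of control adipocyte-like nuclei, and 3 or more in 7.40% and 3.92%. In cluster 1 the share with 3 or more was 12.1% and 7.39%. Thinned to 3000 UMIs, Ppargc1a was found in 20.5% of 117 cKO-labelled nuclei with a Cidea UMI and 24.8% of those without, and in 26.1% of 111 control nuclei with a Cidea UMI and 21.2% of those without. Acot11 was found in 5.98% of cKO-labelled nuclei with a Cidea UMI and 3.47% of those without, and in 4.50% and 1.67% of the control nuclei. For Esrrg the shares were 3.42% and 2.71% in the cKO-labelled and 6.31% and 2.16% in the control library. The intervals overlapped for all 3 genes in both libraries.

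Prdm16 did not differ alike in the adipocyte-like clusters. Its log2 ratio of the cKO-labelled over the control level was 0.83 (0.56 to 1.09) in cluster 0 and 0.41 (0.17 to 0.65) in cluster 1. It was 0.16 (-0.11 to 0.42) in cluster 2 and -0.62 (-1.25 to -0.03) in cluster 7. Outside adipocyte-like nuclei Prdm16 was 47.1 CPM in the cKO-labelled and 51.0 CPM in the control library, with classes in both directions. The ratio was -0.91 in vascular endothelial-like and -0.90 in macrophage-like nuclei, and 0.96 in mesothelial-like and 0.86 in progenitor or fibroblast-like nuclei. These 4 intervals were clear of 0, and those of the other named classes crossed it.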
